A study of Homo sapiens with 8 samples.

Results

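The regions described here are G-quadruplex (G4) intervals that lie just upstream of a protein-coding gene. They carry the G4 sequence motif on 1 DNA strand only. No protein-coding gene starts close by on the opposite strand, and such promoters are called one-sided below. Opposite-strand starts of other transcript types were not excluded. An interval was taken when its centre lay 0 to 1000 bp upstream of the nearest protein-coding transcription start site (TSS), when no protein-coding TSS of the opposite strand lay within 2 kb of the centre, and when exactly 1 strand held 4 runs of at least 3 G separated by loops of 1 to 7 bases. These criteria were met by 1612 of 9205 high-confidence intervals in K562 and by 1001 of 8805 in HepG2, that is by 2613 of 18010 in all. They lay at 1563 genes in K562 and 985 in HepG2, and few genes (46 and 16) held more than 1.

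The study mapped G4s by G4 ChIP-seq, in which an antibody against folded G4s pulls down sonicated, formaldehyde cross-linked chromatin for sequencing, with input chromatin as the control. Its samples were 3 G4 ChIP libraries (a, b and c) and 1 input library of each of 2 untreated cancer cell lines, K562 (chronic myelogenous leukemia) and HepG2 (hepatocellular carcinoma). The authors also considered earlier G4 ChIP data of K562, and it is unclear whether these are part of the K562 list. High-confidence intervals are stretches called in at least 5 of 8 replicates in K562 and in at least 6 of 9 in HepG2, and lower-confidence intervals are those called in at least 2. These replicates were technical repeats, 2 or 3 of each of 3 independent experiments per line, so 5 of 8 or 6 of 9 do not stand for as many independent samples, and the labels do not tie a library to an experiment. A single merged list stood for each line and gave only positions, so the depth of an interval is unknown, no spread between replicates could be computed, and the intervals and tests below cover the counting of regions only.

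A G4 is a 4-stranded structure that single-stranded, G-rich DNA can fold into when G bases from separate runs stack in planes. Promoters of active genes are known as places where G4s are found, and many are also rich in GC boxes, the G-rich binding sites of SP and KLF transcription factors. The coding strand of a gene reads like its RNA and the template strand is the one that RNA polymerase copies. Downstream of a TSS, RNA pairs with the template strand in R-loops, which leave the coding strand single-stranded. Upstream of every TSS of a gene, the polymerase of that gene has not yet started. There the names coding and template give only the orientation of the motif. Some members have their motif past the TSS or lie downstream of another start, as counted below. ChIP recovers double-stranded DNA and does not say which strand was folded, so the strand below is always that of the sequence motif.

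A pair of K562 members shows what the classes look like. They are printed whole, 5′ to 3′ in the direction of the gene, with the motif in capitals, so that a coding-strand motif reads as runs of G and a template-strand motif as runs of C. UBXN7 encodes an adaptor of the p97 ATPase, and its interval at chr3:196159307-196159471 (hg19) had its centre 88 bp upstream of the TSS. ZNF616, a zinc finger gene, had its interval at chr19:52643192-52643359 with the centre 84 bp upstream. Both genes lie on the minus strand, and each interval was overlapped by a high-confidence HepG2 interval. At UBXN7 the HepG2 interval held the whole motif. At ZNF616 it lay inside the K562 interval, at chr19:52643234-52643302, and held only part of the motif.
UBXN7: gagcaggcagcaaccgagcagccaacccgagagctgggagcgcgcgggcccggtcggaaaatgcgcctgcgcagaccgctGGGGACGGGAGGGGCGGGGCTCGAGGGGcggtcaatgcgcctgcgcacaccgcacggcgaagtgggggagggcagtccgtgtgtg
ZNF616: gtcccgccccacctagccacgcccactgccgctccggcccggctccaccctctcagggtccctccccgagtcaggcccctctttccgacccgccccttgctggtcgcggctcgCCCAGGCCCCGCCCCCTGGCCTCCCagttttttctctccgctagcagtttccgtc

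Motifs of well-known genes are given next, each read 5′ to 3′ on its own G-rich strand with the runs of G in capitals, because they show the motif in both orientations at promoters that are often discussed as G4 sites or that mark a lineage. None of these motifs overlapped an annotated UTR. VEGFA, the endothelial growth factor gene on the plus strand, had its motif on the coding strand at chr6:43737860-43737890, 73 bp upstream, inside a K562 interval of 172 bp and a HepG2 interval of 77 bp. HIF1A, the hypoxia factor gene, had its motif on the template strand at chr14:62162154-62162182, 63 bp upstream, in both lines. TAL1, a regulator of blood cell development, was a member in K562 only, with a coding-strand motif at chr1:47697927-47697954 and no interval of either HepG2 list over it.
VEGFA, coding: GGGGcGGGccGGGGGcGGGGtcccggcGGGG
TAL1, coding: GGGGccGGGcGGGcgcGGGGcGGGcGGG
HIF1A, template: GGGcgcgcGGGGaGGGGagaGGGGGcGGG

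The motifs with the most runs are shown for their arrays of short repeats, which were found on both strands. SLC66A3, a gene of the solute carrier group, held 16 runs in 80 bases on the coding strand at chr2:11295411-11295490. NMT2, which encodes an N-myristoyltransferase, held 16 runs in 88 bases on the coding strand at chr10:15210720-15210807. PRDX6, a peroxiredoxin gene, held 16 runs in 89 bases on the template strand at chr1:173446297-173446385. The highest number of runs was 19, in a coding-strand motif at WIPI1 in K562, of which the HepG2 interval took in 17. At AIG1 the template-strand motif held 17 runs.
SLC66A3, coding: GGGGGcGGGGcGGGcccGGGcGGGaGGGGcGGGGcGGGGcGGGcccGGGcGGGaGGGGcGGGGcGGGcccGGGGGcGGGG
NMT2, coding: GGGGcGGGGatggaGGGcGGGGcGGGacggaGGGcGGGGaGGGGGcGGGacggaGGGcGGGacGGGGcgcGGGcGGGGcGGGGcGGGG
PRDX6, template: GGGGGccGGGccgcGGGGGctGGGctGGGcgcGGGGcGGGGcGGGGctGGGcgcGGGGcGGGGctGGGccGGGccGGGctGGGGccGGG

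Before asking which strand the motif took, the selection was followed step by step. In K562, 5740 intervals (62.4%) had their centre 0 to 1000 bp upstream of the nearest protein-coding TSS, and 4891 of these were one-sided. Of the one-sided intervals, 3091 held no motif of this definition, 188 held it on both strands (3.84%) and 1612 on 1 strand (33.0%). In HepG2, 4667 intervals (53.0%) were upstream and 3917 one-sided, of which 2841 held no motif, 75 held it on both strands (1.91%) and 1001 on 1 strand (25.6%). Most members sat close to the gene. The interval itself spanned the TSS in 1219 K562 members (75.6%) and in 572 HepG2 members (57.1%), and the centre lay within 200 bp in 1424 (88.3%) and 832 (83.1%).

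Taken over the whole kilobase, the motif was on either strand about equally often. The coding strand held it in 856 of 1612 K562 members (53.1%, exact binomial 95% interval 50.6 to 55.6) and in 504 of 1001 HepG2 members (50.3%, 47.2 to 53.5). As the background, every motif site 0 to 1000 bp upstream of a one-sided coding TSS was located, 21898 sites at 9397 genes. Sites were placed by the centre of the motif and all counted, also where both strands held one. Members are intervals placed by their own centre, so the units differ. Of the sites outside the intervals, 51.6% were on the coding strand for K562 and 51.8% for HepG2, so the members' shares were near the background. Whether a coding-strand site was more likely to lie wholly inside an interval than a template-strand site at the same distance was tested with a Cochran-Mantel-Haenszel test in distance classes of 100 bp. The common odds ratio over these sites (n = 21898) was 1.06 in K562 (95% interval 0.971 to 1.15, p = 0.199, adjusted p = 0.232) and 0.967 in HepG2 (0.865 to 1.08, p = 0.5497, also the adjusted p). No difference between the strands was detectable over the kilobase as a whole, although with loops of up to 12 bases the HepG2 odds ratio was 0.897 and passed the threshold.

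The share moved with the distance to the TSS. In K562 the coding strand held the motif in 239 of 428 members with a centre at 0 to 50 bp (55.8%, 50.99 to 60.6), in 283 of 527 at 51 to 100 bp (53.7%) and in 249 of 469 over 100 and up to 200 bp (53.1%). It held 64 of 146 over 200 and up to 500 bp (43.8%, 35.6 to 52.3) and 21 of 42 over 500 bp. In HepG2 the corresponding counts were 100 of 181 (55.2%, 47.7 to 62.6), 133 of 266, 205 of 385 (53.2%), 57 of 143 (39.9%, 31.8 to 48.4) and 9 of 26 (34.6%, 17.2 to 55.7). Up to 200 bp no class fell under 50%, and from there to 500 bp the template strand had the larger count in both lines. The lines are not independent here or below, since 870 of 1001 HepG2 members (86.9%) overlapped a K562 high-confidence interval.

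Members within 200 bp were compared with those further away by a two-sided Fisher's exact test, with p-values adjusted by the Benjamini-Hochberg method over the 7 tests planned. In K562 the coding strand had 771 against 653 members within 200 bp and 85 against 103 beyond, an odds ratio of 1.43 (1.05 to 1.94, exact p = 0.0240, adjusted p = 0.0420). In HepG2 it had 438 against 394 and 66 against 103, an odds ratio of 1.73 (1.24 to 2.43, exact p = 0.00133, adjusted p = 0.00427). Most HepG2 members overlap K562 intervals, so the tests of the lines are not independent of each other. Regions called in both lines and those called in 1 line are split further below. The place of the limit mattered. With a limit of 100 bp the odds ratio was 1.17 in K562 and 1.14 in HepG2, and neither passed the threshold. With the lower-confidence lists it was 1.28 and 1.24, past it in neither line after adjustment, and neither passed with at least 4 G per run (1.85 and 2.80) nor K562 without opposite TSSs of any biotype (1.38).

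**Figure D1:**
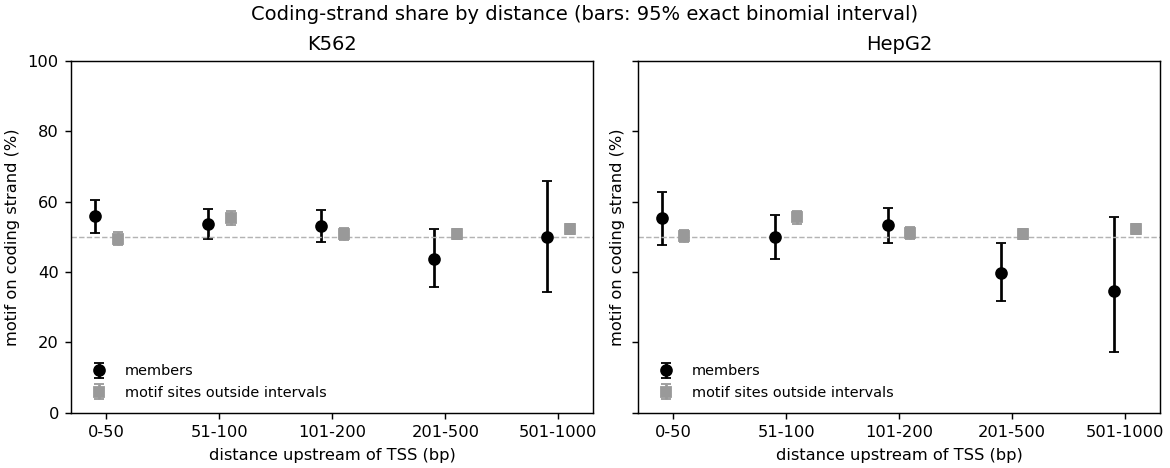
Percentage of motifs on the coding strand (y axis) by distance upstream of the TSS in bp (x axis), for members (black circles) and for motif sites outside the high-confidence intervals (grey squares), in K562 (left) and HepG2 (right). Bars are exact binomial 95% intervals. The members are above 50% at 0 to 50 bp and below it between 200 and 500 bp in both lines, while the sites outside stay between 49.5% and 55.5%. Most HepG2 members overlap K562 intervals, so the panels are not independent.

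Counted over motif sites, the strands differed past the threshold only in the class nearest to the TSS. The sites inside an interval include the motifs of the members, so these counts are not separate evidence. Within 50 bp of the TSS, 400 of 1895 coding-strand sites lay inside a K562 interval (21.1%) against 304 of 1831 template-strand sites (16.6%). The odds ratio was 1.34 (1.14 to 1.59, exact p = 0.000507, adjusted over 10 tests p = 0.00507). In HepG2 the counts were 194 of 1895 (10.2%) and 142 of 1831 (7.76%), an odds ratio of 1.36 (1.08 to 1.70, exact p = 0.00849, adjusted p = 0.0424). From 51 to 200 bp the strands did not differ detectably in either line, with odds ratios between 0.934 and 1.02. Between 200 and 500 bp the template-strand sites had the higher percentage inside, 7.73% against 6.68% in K562 (exact p = 0.125) and 5.79% against 4.40% in HepG2 (exact p = 0.0188, adjusted p = 0.0627), which did not pass the threshold after adjustment. Over all sites (n = 21898), the odds ratios of the 5 classes differed from each other by a Breslow-Day test in K562 (p = 0.0106) and in HepG2 (p = 0.00326). These tests by class were chosen after the distance pattern had been seen, and the sites of a promoter are not independent of each other.

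**Figure D2:**
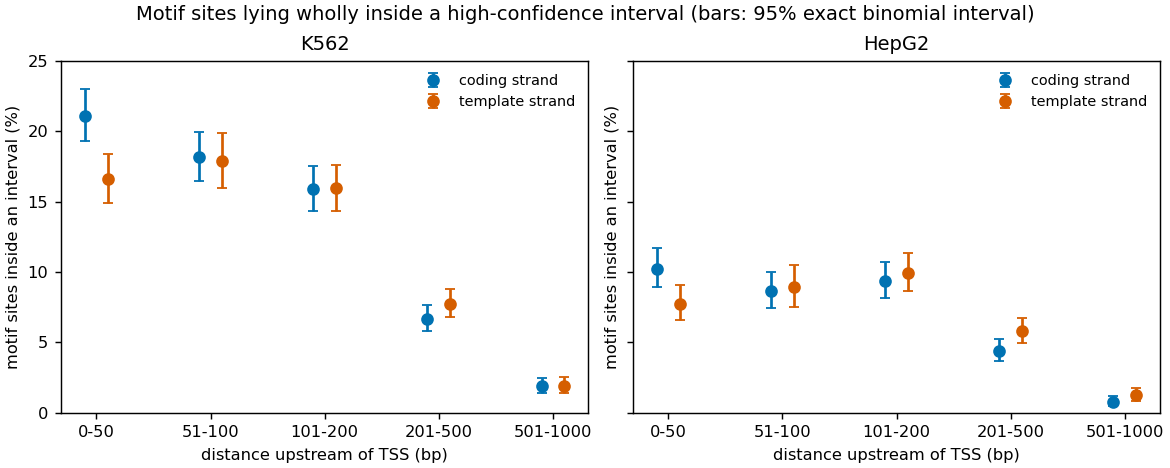
Percentage of all motif sites upstream of one-sided coding TSSs that lie wholly inside a high-confidence interval (y axis) by distance upstream of the TSS in bp (x axis), for coding-strand sites (blue) and template-strand sites (orange) in K562 (left) and HepG2 (right). Bars are exact binomial 95% intervals. At 0 to 50 bp the coding-strand sites are higher (21.1% against 16.6% and 10.2% against 7.76%). Between 200 and 500 bp the template-strand sites are higher in both lines, not past the threshold after adjustment. The same sites are counted in both panels, so the lines are not independent.

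The centre of an interval is not the place of the motif, so the motif's own distance was measured as well. The median distance of the interval centre was 82 bp for coding and 87 bp for template members in K562, and 108 and 113 bp in HepG2. The longest motif in each member lay closer, by its median, to the TSS on the coding strand. In K562 its median distance was 73 bp on the coding and 89 bp on the template strand, and in HepG2 the medians were 81.5 and 125 bp. Its centre was already past the TSS in 73 coding (8.53%) and 51 template members (6.75%) in K562, and in 47 (9.33%) and 22 (4.43%) in HepG2. The motifs nearest to a TSS were found on both strands. Coding-strand motifs were centred within 1 bp of a TSS of SCAMP4, of JAK1 (a cytokine receptor kinase) and of CEP68 (a centrosomal protein), and template-strand motifs at the TSS of MIB2 (a ubiquitin ligase), SLC25A37 (a mitochondrial iron importer of erythroid cells) and SLC9A8 (a sodium-proton exchanger).

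**Figure D3:**
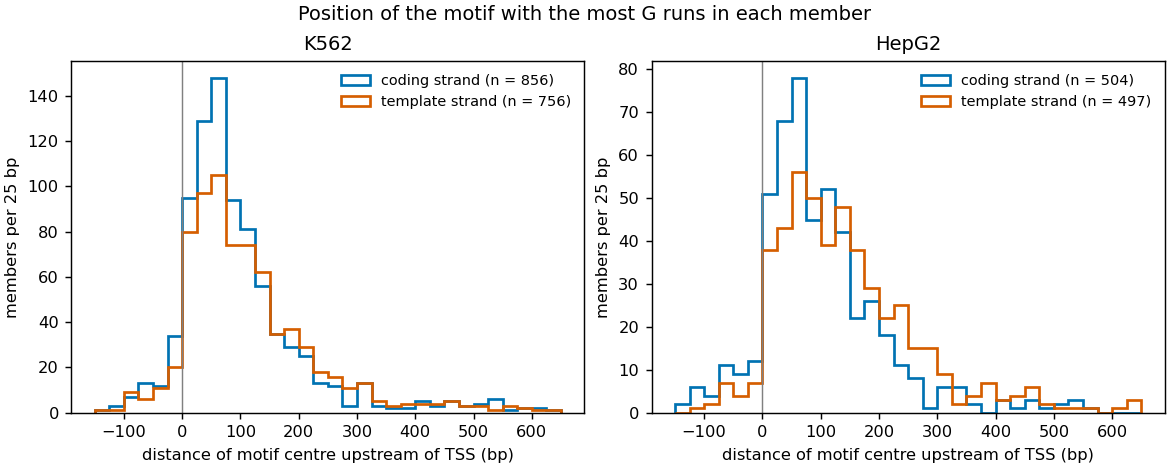
Number of members per 25 bp (y axis) by the distance of the centre of the longest motif upstream of the TSS in bp (x axis, positions past the TSS below 0, drawn from 150 bp past to 650 bp upstream), for coding-strand (blue) and template-strand motifs (orange) in K562 (left) and HepG2 (right). The title over the panels names the motif with the most runs, but the positions drawn are those of the longest motif. The coding-strand curve has the higher peak in the first 100 bp, with medians of 73 and 89 bp (K562) and of 81.5 and 125 bp (HepG2).

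As a comparison on the transcribed side, intervals centred 1 to 1000 bp downstream of the TSS that met the other criteria were taken. They had the motif on the coding strand in 193 of 306 cases in K562 (63.1%, 57.4 to 68.5) and in 99 of 155 in HepG2 (63.9%, 55.8 to 71.4). Upstream members differed from them with an odds ratio of 0.663 in K562 (0.515 to 0.853, exact p = 0.00138, adjusted p = 0.00427) and of 0.574 in HepG2 (0.404 to 0.814, exact p = 0.00183, adjusted p = 0.00427). Neither line passed with at least 4 G per run (0.522 and 0.554), nor HepG2 without opposite TSSs of any biotype (0.669). The sequence itself also differed between the sides, since 58.6% of all 23351 downstream motif sites were on the coding strand. Among the downstream sites (n = 23351), those on the coding strand were inside an interval more often than template-strand sites at the same distance, with an unadjusted odds ratio of 1.62 in HepG2 (1.22 to 2.16, p = 0.000787) and of 1.21 in K562 (1.00 to 1.47, p = 0.0485).

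Some members lie upstream of their nearest TSS but downstream of another one. A protein-coding TSS of the same strand lay 1 to 2000 bp further upstream of the centre, often an alternative start of the same gene, in 323 K562 and 188 HepG2 members. The motif was on the coding strand in 193 of these in K562 (59.8%) against 663 of the other 1289 (51.4%), an odds ratio of 1.40 (1.09 to 1.80, exact p = 0.00739). In HepG2 it was in 114 (60.6%) against 390 of the other 813 (48.0%), an odds ratio of 1.67 (1.21 to 2.31, exact p = 0.00206). This split was chosen after the data had been seen and its p-values are unadjusted. Without these intervals the odds ratio of near against far members was 1.48 in K562 and 1.6 in HepG2, past the threshold in both. Opposite-strand TSSs of other transcript types were also looked for, at noncoding genes and at transcripts of protein-coding genes not themselves classed as protein-coding. Such a TSS lay within 2 kb of 495 K562 members, 51.9% of them coding, against 53.6% of the rest (exact p = 0.552). In HepG2 it lay near 336 members, 46.1% coding against 52.5% (exact p = 0.0611).

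**Figure D4:**
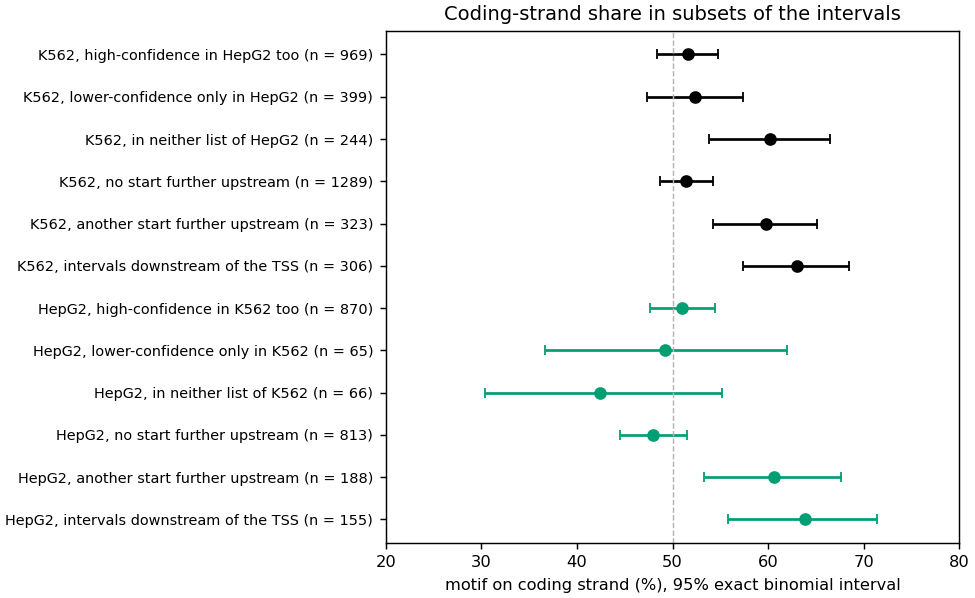
Percentage of intervals with the motif on the coding strand (x axis, exact binomial 95% interval) for subsets of the K562 (black) and HepG2 intervals (green), named on the y axis with their number. The first 5 rows of each line are members, split by their presence in the lists of the other line and by another start further upstream, and the last row holds the intervals downstream of the TSS. The downstream intervals lie highest within each line, at 63.1% and 63.9%.

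Between the lines, regions called in both carry the same sequence, so the lines were compared on members without a high-confidence interval in the other line. The coding strand held the motif in 356 of 643 such K562 members (55.4%, 51.4 to 59.3) and in 60 of 131 such HepG2 members (45.8%, 37.1 to 54.7). The odds ratio was 1.47 (1.01 to 2.14, exact p = 0.0543, adjusted p = 0.0760), which did not pass the threshold. Members without even a lower-confidence interval in the other line stood furthest apart, with 147 of 244 coding in K562 (60.2%, 53.8 to 66.4) and 28 of 66 in HepG2 (42.4%, 30.3 to 55.2). With gene starts as the only TSSs the odds ratio was 1.81, and without the intervals that lie downstream of another start it was 1.84, both past the threshold, as was 1.52 with no opposite TSS within 5 kb. The other 9 of 12 alternatives did not pass, the lowest being 1.11 with at least 4 G per run and 1.19 with the lower-confidence lists. Members with a high-confidence interval in the other line were near even, 500 of 969 in K562 (51.6%) and 444 of 870 in HepG2 (51.03%).

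The contrast of near with far members was also computed apart for regions that both lines called and for those of 1 line. Among shared K562 members the coding share was 53.4% within 200 bp and 38.8% beyond (odds ratio 1.81, exact p = 0.00341), and among shared HepG2 members it was 53.3% and 40.0% (odds ratio 1.71, exact p = 0.00306). Since these regions overlap, the values of the 2 lines are not independent. Among K562 members without a HepG2 high-confidence interval the shares were 55.2% and 56.7% (odds ratio 0.941, exact p = 0.897). Among HepG2-only members they were 48.2% and 31.6% (odds ratio 2.02, exact p = 0.218, with 19 members beyond 200 bp, 6 of them coding). The difference between these odds ratios was not tested.

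At the level of genes, 1859 had a member in either line and 689 in both. The members of the 2 lines had the motif on the same strand at 673 of these genes, 347 on the coding and 326 on the template strand, which follows from the shared sequence. At 13 genes a line had members of both strands, and at 3 the lines had opposite strands. At these 3 genes the opposite motifs belonged to different starts of the gene. At RUSC1 and CTDSP1 the intervals did not overlap. At ENTPD8, which encodes an ectonucleotidase, the motifs were neighbours, a template-strand motif at chr9:140335849-140335866 in a K562 interval of 73 bp and a coding-strand motif of 9 runs at chr9:140335930-140335995 in a HepG2 interval of 345 bp. They are printed here as the only overlapping pair of members with opposite strands.
ENTPD8, template, K562: GGGGtGGGcGGGGcaGGG
ENTPD8, coding, HepG2: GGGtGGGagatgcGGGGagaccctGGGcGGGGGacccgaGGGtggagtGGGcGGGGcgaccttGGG

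The interval edges decided whether a motif was counted. Of the 969 shared K562 members, 213 (21.98%) had a HepG2 interval over them that held no motif, and of the 870 shared HepG2 members 85 (9.77%) had a K562 interval without one. Shared K562 members were wider, with a median of 290 bp against 197 bp for those without a HepG2 high-confidence interval, and the HepG2 medians were 253.5 and 174 bp. An enclosing lower-confidence interval held the motif on both strands for 159 K562 (9.86%) and 102 HepG2 members (10.2%). The widest K562 members were at DNPEP (an aspartyl aminopeptidase) with 774 bp on the coding side and at EMD, which encodes the nuclear envelope protein emerin, with 782 bp on the template side. The widest in HepG2 were at DNPEP with 876 bp and at HTT, the huntingtin gene, with 779 bp.

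Coding and template members resembled each other in the features that do not depend on orientation. The median width was 249 and 250 bp in K562 and 251 and 238 bp in HepG2. The median GC content was 74.9% and 74.1% in K562 and 71.98% and 71.5% in HepG2, against 58.4% in windows of 250 bp upstream of the 16752 genes with a one-sided start. Members were chosen for runs of G, so this gap is not independent of the rule. The motif held a median of 5 runs in both classes in K562 and 4 in HepG2. Of its loops, 41.3% and 42.4% were 1 base long in K562 and 38.5% and 38.6% in HepG2. Runs of 5 or more G occurred in 49.4% of coding and 50.1% of template members in K562, and in 46.0% and 46.9% in HepG2.

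The sequence around the motif leaned the same way as the motif. GC skew is the excess of G over C divided by their sum, here read on the coding strand and with every motif masked. Its median was 0.067 in coding and -0.036 in template members in K562, and 0.083 and -0.052 in HepG2, against -0.006 in the unmasked windows of all promoters. It was above 0 in 67.5% of coding and 38.1% of template members in K562, and in 67.7% and 36.0% in HepG2. The rule leaves out intervals with a motif on both strands, so this skew is not independent of it. In the 500 bp after the TSS, with no motif masked, the median skew was 0.071 and 0.045 in K562 and 0.078 and 0.055 in HepG2, and 0.045 at all promoters. Coding members thus had the higher downstream median in both lines. The interval spanned the TSS in 1219 K562 (75.6%) and 572 HepG2 members (57.1%), so in most members the rule reached these bases. The downstream medians are therefore not independent of the rule either.

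**Figure D5:**
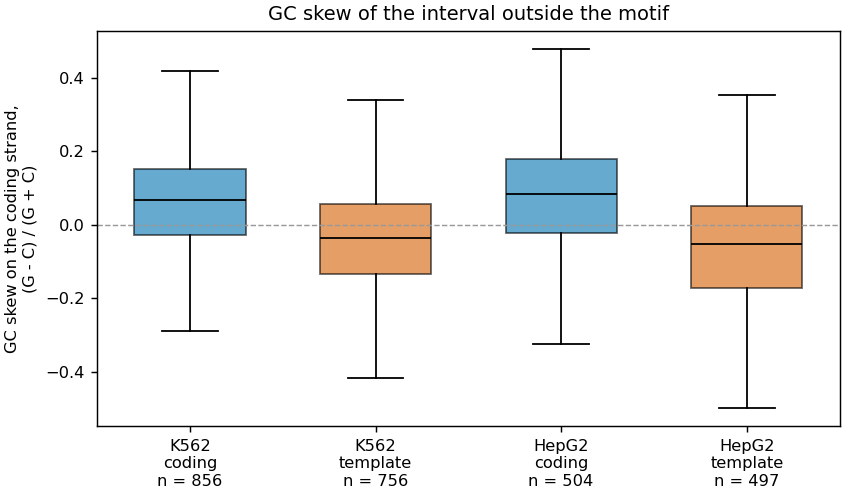
GC skew of each member outside the motif, read on the coding strand (y axis, no unit), for coding-strand (blue) and template-strand members (orange) of K562 and HepG2 (x axis). Boxes span the quartiles with the median as a line, whiskers reach up to 1.5 times the quartile range, and points beyond are not drawn. The medians are 0.067 and -0.036 in K562 and 0.083 and -0.052 in HepG2.

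Short words of promoter factors were counted in a window of 250 bp around each centre, on both strands. For all promoters the window was the 250 bp upstream of the start, so the windows compared are placed differently. GGGCGG, the core of the GC box bound by SP and KLF factors, is itself G-rich and can be part of the motif. It was present in 95.8% of coding and 94.7% of template members in K562 and in 93.3% and 93.6% in HepG2, against 46.7% of all one-sided promoters. Within the interval but outside the motif it was found in 77.6% and 77.2% in K562 and in 75.8% and 72.2% in HepG2. Outside the motif, K562 coding members had it on the coding strand in 61.0% and on the template strand in 43.9%, and template members in 45.1% and 57.0%. In HepG2 these shares were 61.7% and 35.3% for coding and 40.2% and 54.3% for template members. The rule admits only intervals with G runs of this kind on 1 strand, so neither the presence nor the orientation of this G-rich word is independent of it. CCAAT, the NFY box, was in 34.8% and 34.5% of K562 and in 41.9% and 44.7% of HepG2 members, against 33.1% of all promoters. CCGGAA, an ETS word, was in 20.3% and 21.2% of K562 and 19.8% and 20.7% of HepG2 members, against 13.4%. CGCATGCG, which reads the same on both strands and is a core of the NRF1 site, was in 2.92% and 3.84% of K562 and 3.37% and 4.63% of HepG2 members, against 1.65%. All promoters were not chosen for a motif and had a lower median GC content than the members. The shares of these words were not matched for either. Matches of these letters are descriptions and not binding sites.

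Gene groups are given as members or counts of genes, with no test. Of genes often discussed for promoter G4s, VEGFA (both lines) and ABL1 (HepG2) were on the coding strand, and HIF1A, YY1 and MAZ in both lines and PDGFRB in HepG2 on the template strand. YY1 and MAZ encode zinc finger transcription factors. Among 30 blood lineage genes, 21 had a motif site upstream. The K562 members TAL1, ZFPM1 and RUNX1 were on the coding strand, beside 53.1% of all K562 members. The count is too small to read as a trait of the lineage. RUNX1 had 2 members at 2 of its starts. ZFPM1, which encodes a GATA1 cofactor, was also a HepG2 member. Among hepatocyte genes, NR0B2 (a nuclear receptor that represses bile acid synthesis) was a template member in HepG2, and PPARA, a fatty acid-sensing receptor gene, was a coding member in K562.

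Larger families were taken by the start of the gene symbol, so they also hold partners and regulators of the proteins they are named for, and are read beside the coding share of all members (53.1% in K562 and 50.3% in HepG2). Genes with symbols in SLC, mostly solute carriers, had 18 coding and 17 template genes in K562 and 10 and 11 in HepG2, and TMEM genes had 11 and 11, and 4 and 5. Zinc finger ZNF genes had 7 coding, 17 template and 1 with both strands in K562, and 5, 7 and 1 in HepG2. Symbols in RAB, which cover the RAB GTPases of vesicle traffic and several of their binding partners, had 11 coding and 4 template genes in K562 and 6 and 2 in HepG2. Of 79 USP genes, mostly deubiquitinases, 27 had a motif site upstream. The 7 with a K562 member had it on the coding strand, as did the 4 with a HepG2 member (USP3, USP28, USP49 and USP53, each a K562 member too), a count singled out after its values were seen. Symbols in PSM, of proteasome subunits, activators and assembly factors, had 1 coding and 5 template genes in K562 and 1 and 3 in HepG2, with PSMD2 coding and PSMC4 and PSMD9 template in both lines. In the SP and KLF group, 4 genes were coding and 5 template in K562, and KLF6 and KLF16 were coding in both lines while SP1, SP3 and SP4 were template members in K562. Symbols in CCN and CDK, which here were mostly cyclins and the partners or inhibitors of cyclins and their kinases, had 5 coding and 1 template gene in K562 and 5 and 2 in HepG2, with the cyclin gene CCND3 coding in both and the kinase inhibitor gene CDKN1A coding in HepG2. These counts are small, and the families were chosen with earlier results of these data known.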

How the data were processed

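G4 ChIP-seq intervals of K562 and HepG2 were analysed. The files deposited give the position of each interval in bp and no count or score. The authors aligned reads to hg19 with BWA, removed duplicates, ran MACS2 on every replicate (q-value limit 0.05) and merged the calls with bedtools. From there, positions were compared with TSSs of all protein-coding transcripts of GENCODE 44 lifted to GRCh37 and with the GRCh37 sequence. Motifs were searched on both strands, and a loop may contain G, so that 27 K562 and 14 HepG2 members held fewer than 4 separate runs. Interval positions are printed 1-based. Shares have exact binomial 95% intervals, and odds ratios have 95% log-normal intervals. Tests were Fisher's exact and Cochran-Mantel-Haenszel, two-sided, with Benjamini-Hochberg adjustment over 7 tests. The genes named were, for each strand, those with the most runs, the motif nearest to the TSS or the widest interval, members at listed genes (some of which are not reported here), and promoters with opposite strands in the lines. The printed pair UBXN7 and ZNF616 shows intervals close to the median distance. USP, RAB, PSM, SP, KLF and cyclin genes were named from their families after their values had been seen. Members and lists were chosen with earlier results of these data known. On simulated data, the motif search and the TSS assignment equalled a direct search in 100% of 5000 and 3000 cases. The tools were matplotlib 3.10.9, pysam 0.24.0, Python 3.11.15, samtools 1.23.1, scipy 1.17.1 and statsmodels 0.14.6.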

Additional observations from a re-analysis of the deposited data

How the results depend on the processing

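The lists are merged over replicates, so neither a fit without each replicate nor a value per library could be had. No paired analysis was possible because a line has 1 list and no test runs over samples. With at least 4 G per run the near against far odds ratio was 1.85 in K562 and 2.80 in HepG2 and the upstream against downstream odds ratio 0.522 and 0.554, none past the threshold, with fewer members tested. Without opposite TSSs of any biotype near against far was 1.38 in K562 and upstream against downstream 0.669 in HepG2, neither past it. Near against far was also lost with the lower-confidence lists (1.28 in K562, 1.24 in HepG2) and with a limit of 100 bp (1.17 and 1.14). K562-only against HepG2-only members passed it with gene starts only (1.81), with no opposite TSS within 5 kb (1.52) and without intervals downstream of another start (1.84, added after seeing the data), and not under the other 9 of 12 alternatives (lowest 1.11). With gene starts only the coding share was 50.6% in K562 and 47.2% in HepG2. The odds ratio of sites inside an interval crossed 1 in K562 with loops of 1 to 12 bases (0.997), gene starts only (0.981) and the lower-confidence lists (0.994), and in HepG2 with at least 4 G per run (1.04) and 1 site per gene (1.03). In HepG2 it passed the threshold with loops of 1 to 12 bases (0.897). Where not stated, the cause was not tested. The depth behind an interval is unknown.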
